A study of Mus musculus with 12 samples.

Results

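*Sost* and 9 other genes for secreted Wnt antagonists were followed in embryonic mouse hearts that lack the histone chaperone HIRA in cardiogenic mesoderm. The 10 genes were *Sost*, *Sostdc1*, *Dkk1*, *Dkk2*, *Dkk3*, *Sfrp1*, *Sfrp2*, *Sfrp5*, *Frzb* and *Wif1*, all found by symbol among the 20368 genes of the deposited expression table. The set was assembled around *Sost* because *Sost* was called higher in mutant hearts at both stages in these same libraries. The mutant against control values of the 10 genes are therefore given as a description, without p-values, and whether a member passed the call rule in a given fit describes that choice. Tests are given for the change between stages and for genes outside the set.

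Wnt ligands are secreted glycoproteins that bind Frizzled receptors and the co-receptors LRP5 and LRP6, and in the canonical branch this stabilises β-catenin, which activates target genes with TCF and LEF factors. Secreted antagonists act outside the cell in 2 ways. Sclerostin, DKK1 and DKK2 occupy the LRP co-receptors, whereas the SFRP proteins, FRZB and WIF1 bind the ligands themselves. Sclerostin, the product of *Sost*, is best known from osteocytes, where it restrains bone formation. In the heart, canonical Wnt signalling holds progenitors in a proliferating state and takes part in the formation of valve mesenchyme, and its inhibition favours myocyte differentiation.

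RNA-seq was done on hearts from CD1 embryos at E11.5 and E12.5. Controls were *Mesp1Cre*;Hira+/fl and mutants were *Mesp1Cre*;Hira-/fl, with 3 libraries in each of the 4 groups. Both genotypes carried *Mesp1Cre*, which is active in *Mesp1*-expressing mesoderm and its descendants. Recombined control cells were thus heterozygous for *Hira*, and cells outside this lineage kept a working allele in both genotypes. The constitutive null allele was present in every cell of the mutants. The study's text describes controls as littermates of the mutants, but no source used here ties a library to a litter or says whether it came from 1 heart or from pooled hearts, so the spread between libraries may include technical as well as biological differences.

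Between 11994148 and 17483982 reads were counted on genes per library. Levels are given as CPM, the counts of a gene relative to the library total, scaled by edgeR's TMM method, and, where genes are compared with each other, as RPKM, which also divides by gene length. For *Hira* itself, the E11.5 means were 78.1 ± 8.89 CPM for controls and 64.7 ± 8.42 for mutants, and the E12.5 means were 75.1 ± 13.1 and 73.7 ± 5.19 CPM (each SD over 3 libraries). These are reads over the whole gene, so they do not check the deletion of an exon. For the deletion, the paper reports PCR of the recombined allele, fewer RNA-seq reads over the exon and less HIRA protein. The cardiomyocyte gene *Tnnt2* was at 2737 CPM or more in each of the 12 libraries. Some libraries stood apart. E11.5 control 1 had 11.1 CPM of *Runx2*, a skeletal transcription factor, against at most 3.40 in the other 11 libraries, with 9.02 CPM of the epithelial gene *Epcam* and 20.8 of the hepatic gene *Afp*. E11.5 mutant 1 had 50.5 CPM of *Afp* and 3.21 of the lung and thyroid factor *Nkx2-1*, and E12.5 mutant 1 had 27.2 CPM of *Afp* and 18.5 of *Alb*. By Y-linked counts, all 3 E11.5 controls, E11.5 mutant 3, E12.5 control 3 and E12.5 mutant 1 were male and the other libraries female.

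*Sost* encodes sclerostin and lies on the minus strand of chromosome 11, at chr11:101962458-101967015 of GRCm38 (mm10), and the deposited values were made with a gene length of 2066 bases. Its nearest neighbours in the comparison tables were *Dusp3* and *Meox1*, both also on the minus strand. In coordinates, *Dusp3* lies 4127 bases above *Sost* and *Meox1* 68083 bases below it. The 250 bases before its start, from RefSeq on GRCm38.p6, are printed here for the member around which the set was built, and the same window is given for *Dkk2*, a member whose level differed between stages. Both strands of such windows were searched for 4 motifs, namely the repeat GAGAGAGA, the TCF and LEF core letters CTTTGA and CTTTGT, and the TATA letters TATAAA. None of them overlaps another in these windows, and capitals mark the matches.

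Sost, chr11:101967016-101967265, minus strand: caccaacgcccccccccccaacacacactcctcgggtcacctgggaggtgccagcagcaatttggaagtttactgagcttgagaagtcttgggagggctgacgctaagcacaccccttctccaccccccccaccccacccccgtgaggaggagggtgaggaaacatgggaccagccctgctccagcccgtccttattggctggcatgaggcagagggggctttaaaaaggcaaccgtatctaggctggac
Dkk2, chr3:132085042-132085291, plus strand: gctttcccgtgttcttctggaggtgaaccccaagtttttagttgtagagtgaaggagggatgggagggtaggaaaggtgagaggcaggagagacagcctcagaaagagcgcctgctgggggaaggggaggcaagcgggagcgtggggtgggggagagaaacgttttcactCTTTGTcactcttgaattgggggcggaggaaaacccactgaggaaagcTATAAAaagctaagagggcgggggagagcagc

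The *Sost* window held 0 matches to the 4 motifs, and the *Dkk2* window held CTTTGT from -80 to -75 and TATAAA from -32 to -27, counted back from the start. Windows were found for 7 of the 10 members. CTTTGA occurred in those of *Dkk1* and *Frzb* and in 13.8% of all 32851 windows, CTTTGT in those of *Dkk1* and *Dkk2* and in 16.5% of all. TATAAA occurred in the windows of *Dkk1*, *Dkk2* and *Wif1* and in 12.4% of all, and GAGAGAGA in that of *Sfrp5* and in 3.26% of all. The windows of *Sost* and *Sfrp2* held none. These are matches of letters, and binding was not measured here.

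*Sost* was low in control hearts and higher in mutant hearts at both stages. At E11.5 the 3 control libraries held 75, 89 and 48 reads, or 4.90, 5.75 and 3.37 CPM, and the 3 mutant libraries held 224, 366 and 202 reads, or 14.4, 22.2 and 17.4 CPM. At E12.5 the controls held 41, 86 and 107 reads, or 2.70, 4.85 and 6.58 CPM, and the mutants 266, 157 and 262 reads, or 17.8, 9.16 and 17.1 CPM. The lowest mutant library lay above the highest control library at each stage, and mutant replicate 2 was the highest mutant library at E11.5 and the lowest at E12.5. Group means were 4.67 ± 1.21 and 18.0 ± 3.97 CPM (SD, n = 3 each) at E11.5, a 3.84-fold difference (log2 fold change 1.94, SE 0.25). They were 4.71 ± 1.94 and 14.7 ± 4.81 CPM (SD, n = 3 each) at E12.5, a 3.12-fold difference (log2 fold change 1.64, SE 0.31). In whole hearts, a change in the number of cells that express a gene and a change in the RNA per cell cannot be told apart.

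**Figure D1:**
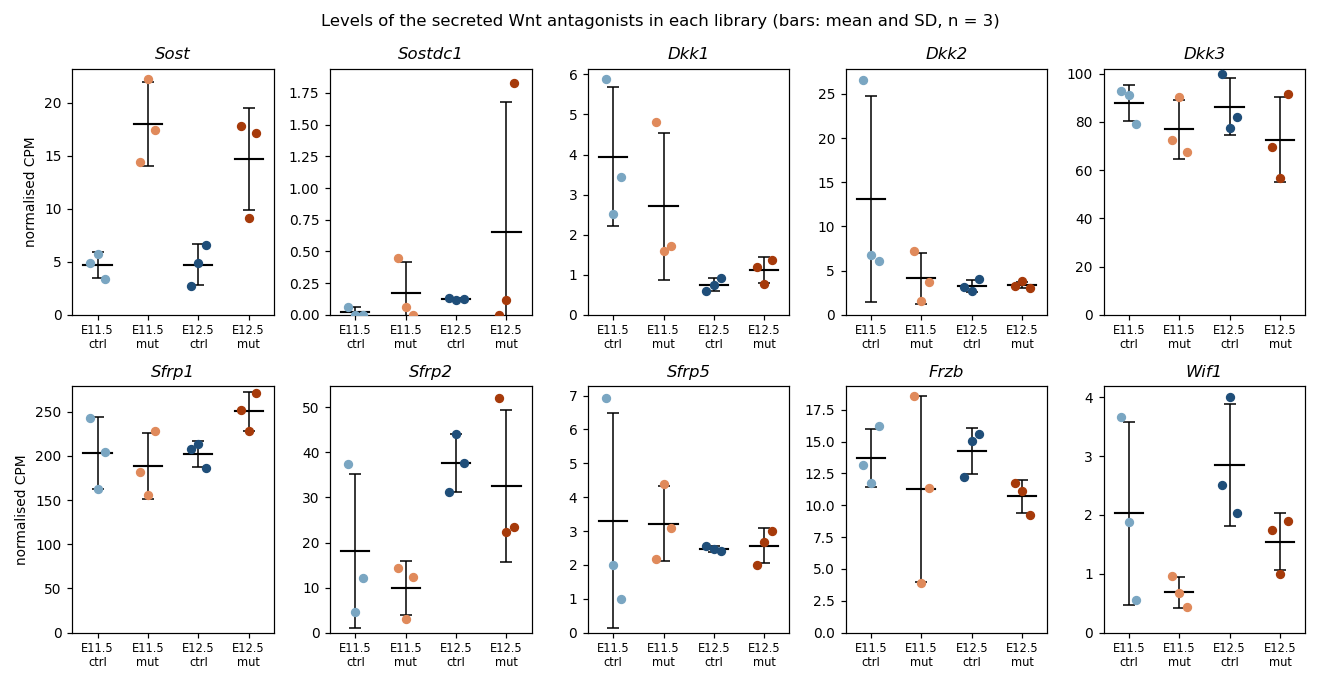
Normalised CPM (vertical axes, linear and scaled separately for each gene) of the 10 secreted Wnt antagonists in each library of the 4 groups, with points for libraries in the order 1 to 3 and bars for mean and SD (n = 3). *Sost* sits at 2.70 to 6.58 CPM in the 6 control libraries and at 9.16 to 22.2 in the 6 mutant libraries. E11.5 control 1 is the highest E11.5 library for *Dkk1*, *Dkk2*, *Dkk3*, *Sfrp1*, *Sfrp2*, *Sfrp5* and *Wif1*.

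A gene was called where its adjusted p was at most 0.05 and its fold change at least 1.5 in edgeR's quasi-likelihood test over all genes tested. By this rule the E11.5 comparison held 14 calls among 12197 genes (0.115%) and the E12.5 comparison 371 among 12256 (3.03%), and *Sost* was among them at both stages, which is how the set was chosen. Leaving out each library in turn left the *Sost* log2 fold change between 1.76 and 2.12 at E11.5 and between 1.37 and 1.95 at E12.5. The E11.5 call held in 1 of these 6 fits, the one without mutant 3, and the E12.5 call in 4, failing without control 1 and without mutant 1. With a term for sex the E11.5 difference was 1.89 on the log2 scale and was not called. Among male hearts *Sost* was at 3.37 to 5.75 CPM in the 3 E11.5 controls and 17.4 in the E11.5 mutant, and at 6.58 in the E12.5 control and 17.8 in the E12.5 mutant. Among E12.5 females it was at 2.70 and 4.85 CPM in controls and 9.16 and 17.1 in mutants.

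Subtracting the E11.5 effect on *Sost* from the E12.5 effect gave -0.31 in log2 units (SE 0.46), a difference smaller than its error. Of 12270 genes, 0 (0%) were called for a difference between the stages in edgeR, 552 had an unadjusted p under 0.05, and DESeq2 called 35. Between stages within a genotype, *Sost* was not called. From E11.5 to E12.5 its log2 fold change was 0.01 (edgeR, SE 0.33, adjusted p = 0.982) in controls and -0.29 (edgeR, SE 0.27, adjusted p = 0.786) in mutants. The stage and genotype comparisons share their libraries, so they are not independent of each other.

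*Sostdc1*, the closest relative of *Sost*, encodes a protein that binds LRP co-receptors and also BMP ligands. It was almost absent from these hearts. The E11.5 controls held 1, 0 and 0 reads and the E11.5 mutants 7, 1 and 0, the E12.5 controls held 2 each, and the E12.5 mutants held 0, 2 and 28. The 28 reads (1.83 CPM) were in E12.5 mutant 3, in which *Epcam* was at 5.10 CPM against 0.937 and 0.759 in the other E12.5 mutants. Whether the 2 signals belong together was not tested. *Sostdc1* fell under the limit of a mean of 0.5 RPKM in each comparison and was not tested for a change.

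The levels of the 10 genes per length spanned more than 100-fold. *Sfrp1* was the most abundant at 48.3 ± 8.16 RPKM (SD over 12 libraries) and *Dkk3* followed at 24.1 ± 3.80, in this order in 12 of 12 libraries and with ranges that did not overlap. *Sfrp2* came next at 12.3 ± 7.95 RPKM, below *Dkk3* in 11 of 12 libraries. *Sost*, at 5.09 ± 3.30 RPKM, and *Frzb*, at 4.27 ± 1.29, overlapped, with *Sost* above *Frzb* in 6 of 12 libraries. *Dkk2*, *Sfrp5*, *Dkk1* and *Wif1* lay between 1.61 and 0.793 RPKM on average, each overlapping its neighbour in the order, and *Sostdc1* was lowest at 0.138.

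The place of *Sost* in this order differed by genotype. In RPKM it ranked between 4 and 8 of 10 in the control libraries and between 3 and 4 in the mutant libraries. It made up 2.45 ± 0.965% of the summed RPKM of the 10 genes in E11.5 controls and 10.05 ± 3.03% in E11.5 mutants, and 2.25 ± 0.983% and 6.36 ± 1.31% at E12.5 (SD, n = 3 each). The sum itself overlapped between genotypes, at 96.5 ± 24.2 and 88.0 ± 7.44 RPKM at E11.5 and 102 ± 3.84 and 110 ± 15.9 at E12.5 (SD, n = 3 each). *Sfrp1* alone accounted for 43.4 to 56.9% of it in the 12 libraries.

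**Figure D2:**
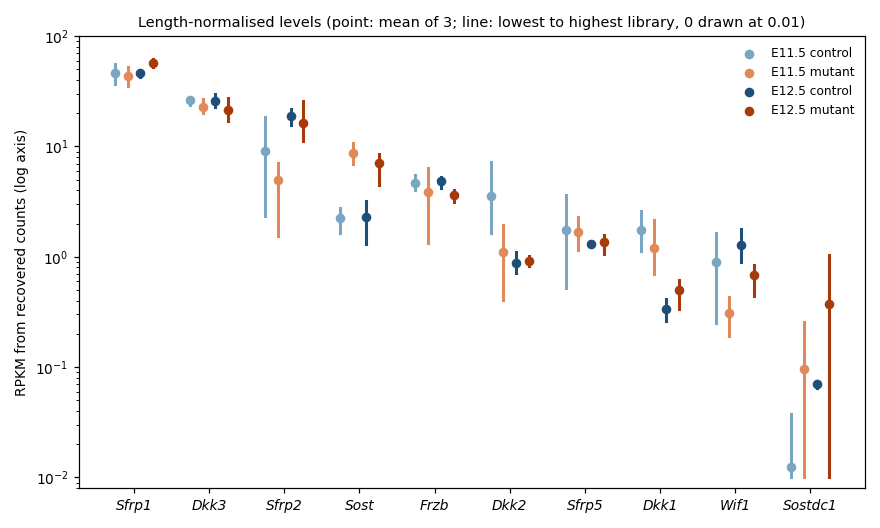
RPKM computed from the recovered counts (vertical axis, log scale) for the 10 genes in order of their mean, with a point for the mean of 3 libraries in each group, a line from the lowest to the highest library and 0 drawn at 0.01. *Sfrp1* and *Dkk3* lie above the rest in nearly all libraries, and *Sost* lies near 2.26 and 2.28 RPKM in the control groups and 8.71 and 7.12 in the mutant groups.

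The DKK genes did not share the pattern of *Sost*. *Dkk1* encodes an LRP5 and LRP6 antagonist needed for head formation, *Dkk2* a related protein that can inhibit or weakly activate the pathway, and *Dkk3* a divergent member that does not bind these co-receptors in the manner of DKK1. At E11.5 *Dkk1* stood at 5.88, 2.52 and 3.44 CPM in controls and 4.81, 1.58 and 1.72 in mutants. At E12.5 it stood at 0.594, 0.733 and 0.922 CPM in controls and 1.20, 0.759 and 1.37 in mutants. The genotypes overlapped at both stages (log2 fold change -0.53, SE 0.49, at E11.5), and at E12.5 *Dkk1* was under the limit for testing.

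*Dkk2* was at 26.6, 6.72 and 6.11 CPM in E11.5 controls and 7.18, 1.52 and 3.70 in E11.5 mutants. At E12.5 all 6 libraries lay between 2.65 and 4.06 CPM. The E11.5 groups overlapped although their means of 13.1 ± 11.7 and 4.13 ± 2.86 CPM (SD, n = 3 each) were far apart (log2 fold change -1.67, SE 0.67), and control 1, the library with *Runx2* and *Epcam* signal, stood far above the other controls. Without control 1 the log2 fold change was -0.63. *Dkk3* varied little, from 56.6 to 99.8 CPM over the 12 libraries, with log2 fold changes of -0.19 (SE 0.14) at E11.5 and -0.24 (SE 0.15) at E12.5.

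Among the ligand-binding antagonists, *Sfrp1* was the member with the most reads, 2510 to 4149 per library. At E12.5 its controls were at 207, 214 and 186 CPM and its mutants at 252, 228 and 271, without overlap, and the difference was 0.32 on the log2 scale (SE 0.09), or 1.25-fold, under the size needed for a call. At E11.5 controls ranged from 162 to 243 CPM and mutants from 155 to 229, and the log2 fold change was -0.11 (SE 0.19). The E11.5 groups overlapped, and subtracting the E11.5 effect from the E12.5 effect gave 0.42 in log2 units (SE 0.22).

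*Frzb*, the gene for secreted frizzled-related protein 3, is expressed in cartilage and mesenchyme. Its E12.5 controls held 12.2, 15.1 and 15.6 CPM and its mutants 11.8, 11.1 and 9.23, lower without overlap (log2 fold change -0.40, SE 0.15). At E11.5 the controls held 13.1, 11.8 and 16.2 CPM and the mutants 18.5, 3.89 and 11.4, so the E11.5 mutants lay on both sides of the controls. *Wif1*, the gene for Wnt inhibitory factor 1, was also lower at E12.5 without overlap, at 2.51, 4.005 and 2.03 CPM in controls and 1.74, 0.992 and 1.90 in mutants (log2 fold change -0.88, SE 0.34). At E11.5 it was at 3.66, 1.87 and 0.561 CPM in controls and 0.962, 0.669 and 0.430 in mutants, which overlapped (log2 fold change -1.53, SE 0.64).

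*Sfrp2* and *Sfrp5* encode further SFRP proteins of embryonic mesenchyme and foregut. *Sfrp2* was at 37.3, 4.65 and 12.2 CPM in E11.5 controls and 14.3, 3.10 and 12.4 in E11.5 mutants, and at 31.2, 44.2 and 37.6 in E12.5 controls and 52.1, 22.2 and 23.4 in E12.5 mutants. The genotypes overlapped at both stages. Without E12.5 mutant 1, the highest of the 6, the E12.5 log2 fold change went from -0.20 to -0.72 and *Sfrp2* was called. The lowest library at E11.5 was mutant 2, which was also lowest for *Dkk1*, *Dkk2*, *Sfrp1* and *Frzb*. That library had the least summed signal of 6 cushion mesenchyme genes, 273 CPM against 520 to 715 in the other E11.5 libraries, and the part of this in the member values was not tested. *Sfrp5* was at 6.93, 2.003 and 0.982 CPM in E11.5 controls, where control 1 again stood highest, and at 2.18 to 4.38 in E11.5 mutants, with E12.5 values from 2.01 to 3.01. The antisense gene *Gm26771* overlaps *Sfrp2*, and since the counting is not stated to use the strand, reads of the pair cannot be told apart.

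Apart from *Sost*, which the set was built around, 0 of 8 members tested were called for genotype at E11.5 and 0 of 7 at E12.5, where 0.115% and 3.03% of all genes were. At E11.5 all 8 other members had a log2 fold change below 0, from -1.67 for *Dkk2* to -0.04 for *Sfrp5*, and in 0 of these 8 were the groups free of overlap, while 16.3% of all genes tested were. At E12.5 the other 7 members split into 3 above and 4 below 0, and *Sfrp1*, *Frzb* and *Wif1* were free of overlap, compared with 26.4% of all genes tested. The median log2 fold change of the other members was -0.41 at E11.5 and -0.20 at E12.5, against -0.01 and -0.00 for all genes tested. The shared direction at E11.5 depended on single libraries and on the use of a sex term. All E11.5 controls were male and mutant 3 was the only male E11.5 mutant. An effect of sex there thus cannot be told apart from differences between single libraries. *Sfrp5* changed sign in 5 of 15 alternatives, not all of which are listed here. Without control 1 the log2 fold changes were 1.10 for *Sfrp5*, 0.24 for *Sfrp2* and 0.04 for *Sfrp1*, without mutant 2 they were 0.13 for *Frzb* and 0.02 for *Sfrp1*, without mutant 1 *Sfrp5* was at 0.18, and with the sex term *Sfrp1* was at 0.17.

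**Figure D3:**
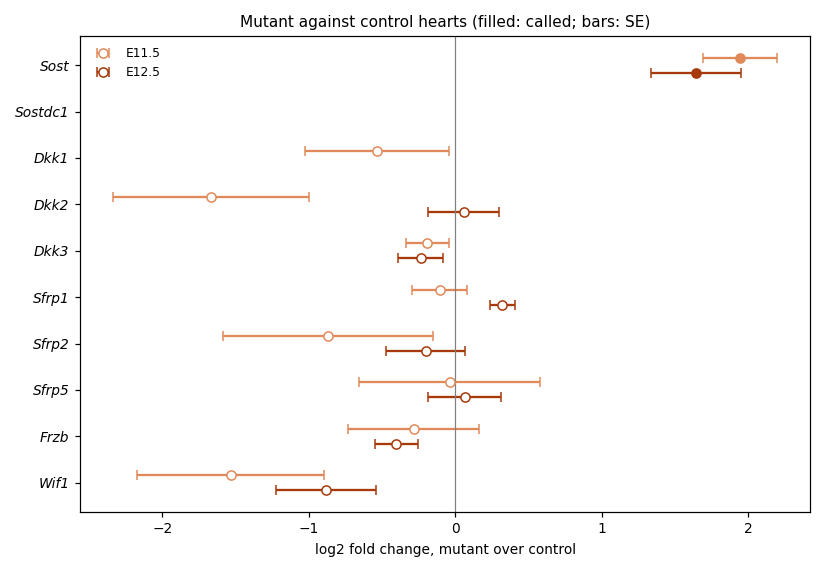
Log2 fold change of mutant over control hearts (horizontal axis) for each member at E11.5 and E12.5, with bars for the SE, filled points for genes called and no point where a gene was not tested. *Sost* lies at 1.94 and 1.64, and the other members lie between -1.67 and 0.32.

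From E11.5 to E12.5 in control hearts, a comparison that did not enter the choice of the set, *Dkk1* and *Dkk2* fell. Of 12250 genes tested, 5.31% were called and 37.4% were free of overlap in this comparison. *Dkk1* went from 3.95 ± 1.74 to 0.750 ± 0.165 CPM (SD, n = 3 each), a log2 fold change of -2.38 (edgeR, SE 0.39, adjusted p = 0.0124). *Dkk2* went from 13.1 ± 11.7 to 3.27 ± 0.718 CPM (SD, n = 3 each), a log2 fold change of -2.01 (edgeR, SE 0.52, adjusted p = 0.0373). Every E11.5 control lay above every E12.5 control for both genes. *Dkk1* was under 0.5 RPKM in E12.5 controls and entered the test through its E11.5 level, and without a filter its adjusted p was 0.00213 (edgeR).

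The 2 calls differed in how far they rested on single libraries. Without E11.5 control 1, *Dkk1* changed by -1.97 on the log2 scale and was still called, whereas *Dkk2* changed by -0.97 (adjusted p = 0.0653, edgeR) and was not. The *Dkk1* call was lost without E12.5 control 1 (adjusted p = 0.0728, edgeR) or control 2 (adjusted p = 0.0613, edgeR), and the *Dkk2* call without any of E11.5 control 1 and E12.5 controls 1, 2 and 3. Since the E11.5 controls were all male and 2 of the E12.5 controls female, sex and stage were partly confounded. With a sex term the changes were -2.08 for *Dkk1* (adjusted p = 0.330, edgeR) and -1.69 for *Dkk2* (adjusted p = 0.533, edgeR), and over all genes 19 were called in place of 650. With 3 libraries against 3, an exact two-sided permutation test cannot go below 0.1, and it gave 0.1 for both genes.

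*Sfrp2* had 18.1 ± 17.1 CPM in E11.5 controls and 37.7 ± 6.48 in E12.5 controls (SD, n = 3 each), with a log2 fold change of 1.06 (edgeR, SE 0.51, adjusted p = 0.180). The groups overlapped only through E11.5 control 1, and leaving it out gave 2.17 on the log2 scale (adjusted p = 0.0201, edgeR). The remaining members tested in controls had log2 fold changes between -0.42 (*Sfrp5*, SE 0.55) and 0.48 (*Wif1*, SE 0.52) and were not called.

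In mutant hearts 0 of 8 members tested were called between stages, where 64 of 12237 genes (0.523%) were called in all and 17.4% were free of overlap. *Sfrp2* had 9.93 ± 5.99 CPM at E11.5 and 32.6 ± 16.9 at E12.5 (SD, n = 3 each), without overlap (edgeR log2 fold change 1.73, SE 0.52, adjusted p = 0.302). *Dkk1* had 2.70 ± 1.83 and 1.11 ± 0.318 CPM (SD, n = 3 each), also without overlap (edgeR log2 fold change -1.29, SE 0.51, adjusted p = 0.474). Both values had the sign seen in controls, with adjusted p-values over the threshold. *Sfrp1* had a log2 fold change of 0.42 (edgeR, SE 0.15, adjusted p = 0.404) and *Dkk2* of -0.29 (edgeR, SE 0.48, adjusted p = 0.870). At an unadjusted p under 0.05 there were 3 of 8 members in mutants, where 9.13% of all genes were, and 2 of 9 in controls, where 32.7% were.

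**Figure D4:**
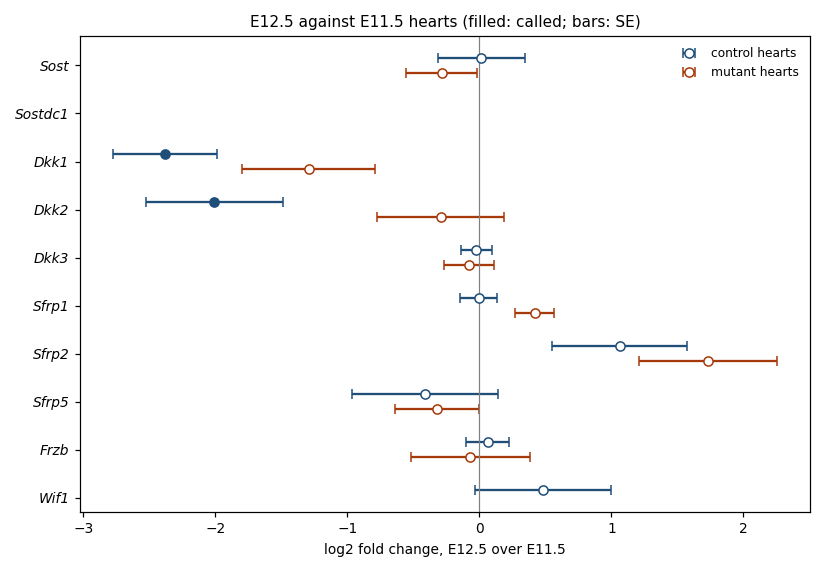
Log2 fold change of E12.5 over E11.5 hearts (horizontal axis) for each member within control and within mutant hearts, with bars for the SE, filled points for genes called and no point where a gene was not tested. *Dkk1* at -2.38 and *Dkk2* at -2.01 in controls are the filled points, and *Sfrp2* lies at 1.06 and 1.73.

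The rest of the Wnt pathway was read from a list of 79 genes, of which 78 were in the table. At E11.5, 0 of the 56 tested were called in edgeR, 7 had an unadjusted p under 0.05 (10.3% of all genes did) and DESeq2 called 5. At E12.5, 2 of 58 were called, both lower in mutants, a share near the 3.03% of all genes. *Notum*, which encodes a secreted enzyme that removes the lipid from Wnt ligands and so inhibits them, was at 3.63, 7.33 and 5.66 CPM in E12.5 controls and 3.01, 2.10 and 0.981 in mutants. It was lower in mutants without overlap, and its log2 fold change was -1.44 (edgeR, SE 0.37, adjusted p = 0.0472), with adjusted p-values from 0.00452 to 0.194 over the alternatives. At E11.5 *Notum* was also free of overlap (edgeR log2 fold change -1.67, SE 0.52, adjusted p = 0.282).

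The ligand gene *Wnt16* was at 3.36, 4.06 and 3.07 CPM in E12.5 controls and 1.41, 2.04 and 0.851 in mutants, with a log2 fold change of -1.26 (edgeR, SE 0.31, adjusted p = 0.0433; 0.0190 to 0.135 over the alternatives). The groups did not overlap. *Wnt16* also rose from E11.5 to E12.5 in controls, by 1.98 on the log2 scale (edgeR, SE 0.37, adjusted p = 0.0189). *Rspo3*, the gene for an R-spondin that enhances Wnt signalling, fell in controls from 39.3 ± 0.719 to 23.1 ± 2.24 CPM (SD, n = 3 each), a log2 fold change of -0.77 (edgeR, SE 0.11, adjusted p = 0.00758). These were the 2 of 58 genes called between stages in controls, where 5.31% of all genes were, and 0 of 58 were called in mutants in edgeR, where 8 had an unadjusted p under 0.05 and DESeq2 called 1. The calls of *Notum* and *Wnt16* at E12.5 each held in 1 of 6 fits that left out a library, the stage call of *Wnt16* in 2 and that of *Rspo3* in 5. With the sex term the stage calls of *Wnt16* (adjusted p = 0.310, edgeR) and *Rspo3* (adjusted p = 0.284, edgeR) were lost.

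Of the genes listed as direct targets of β-catenin, 0 were called for genotype at either stage in edgeR. Among all genes tested, 0.115% were called at E11.5 and 3.03% at E12.5. *Notum*, called lower in mutants at E12.5, was also fixed as a target but was listed and counted with the inhibitors. *Axin2*, the feedback inhibitor used as a readout of the pathway, was at 14.1, 10.2 and 6.53 CPM in E11.5 controls and 9.23, 5.35 and 8.18 in mutants, and at 10.9, 11.5 and 14.3 in E12.5 controls and 7.70, 11.2 and 9.62 in mutants. The groups overlapped, and the log2 fold changes were -0.44 (edgeR, SE 0.31, adjusted p = 0.745) and -0.34 (edgeR, SE 0.17, adjusted p = 0.272). For the transcription factor gene *Lef1* they were -0.22 (SE 0.25) and -0.29 (SE 0.17), for *Tcf7* -0.32 (SE 0.21) and -0.13 (SE 0.17), and for the feedback gene *Nkd1* -0.05 (SE 0.20) and -0.04 (SE 0.13). Among the targets tested, 3 lay above 0 and 4 below at E11.5, and 2 above and 5 below at E12.5. *Myc* was at 0.23 (SE 0.13) and 0.16 (SE 0.16) and *Nkd2* at 0.08 (SE 0.21) and 0.18 (SE 0.17). *Ccnd1* averaged 145 CPM in controls and 149 in mutants at E11.5, and 136 and 132 at E12.5. *Myc*, a growth regulator, was at 18.1 to 19.6 CPM in E11.5 controls and 21.3 to 22.6 in mutants, without overlap, and overlapped at E12.5. *Sp5* had at most 12 reads in a library and was not tested. Of the 8 listed targets 7 were tested, with medians of -0.05 and -0.04. The medians over all pathway genes tested were -0.02 and -0.04, close to -0.01 and -0.00 for all genes. The ligand genes had lower medians. At E11.5, 2 of the 9 tested lay above 0 and 7 below (median -0.55). Of these 4 were free of overlap, against 16.3% of all genes. At E12.5, 3 of 10 lay above 0 and 7 below (median -0.17), and 5 were free of overlap, against 26.4%. Calls among ligands were 0 at E11.5 and 1 at E12.5, *Wnt16*.

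**Figure D5:**
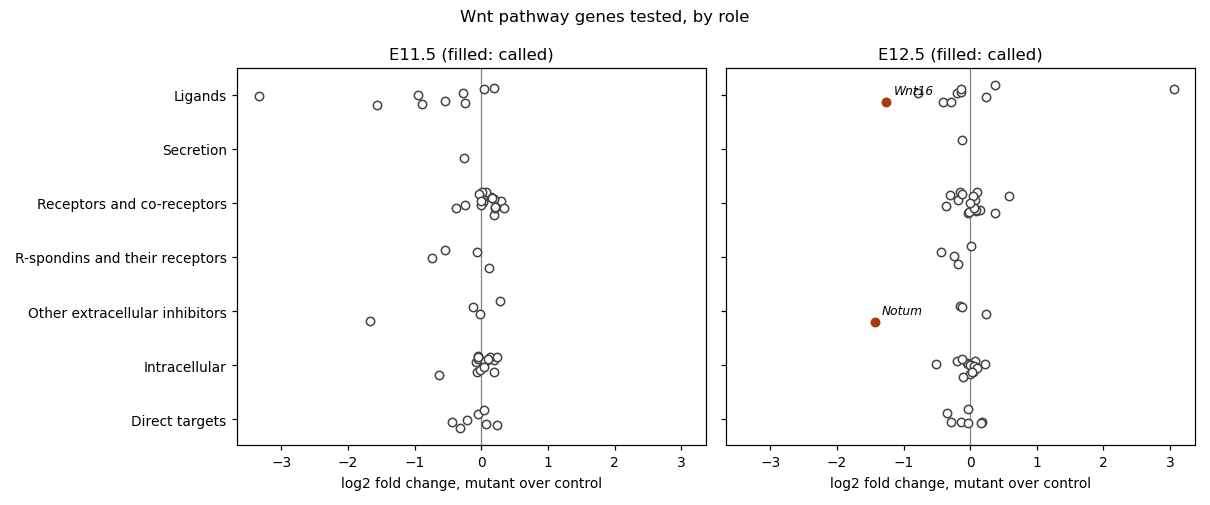
Log2 fold change of mutant over control hearts (horizontal axes) at E11.5 and E12.5 for each Wnt pathway gene tested outside the set, grouped by role (vertical axis, with random vertical scatter inside a role), with filled points for genes called. *Wnt16* at -1.26 and *Notum* at -1.44 are the filled points at E12.5, and there are 0 at E11.5.

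The 5 genes whose log2 CPM was most like that of *Sost* over the 12 libraries, of 12269 compared, were *Tmem189* (Pearson r 0.977), *Hes7* (0.953), *Hpn* (0.944), *Irx6* (0.941) and *Zfp385a* (0.939). The libraries fall into 4 groups, and *Sost* differed between the genotypes, so this is a description of shared genotype differences as well as of libraries. With the group means removed, r was 0.927, 0.779, 0.729, 0.829 and 0.678 in the same order. The 5 genes were picked by likeness over these same libraries, so these values and any shared order of libraries are partly set by that choice. *Irx6*, an Iroquois transcription factor gene, was at 8.04, 9.95 and 4.07 CPM in E11.5 controls and 11.3, 28.8 and 19.5 in mutants, and at 4.62, 4.91 and 8.36 in E12.5 controls and 15.4, 10.7 and 17.1 in mutants, so the mutant libraries ranked as for *Sost* at E11.5, and mutant 2 was lowest for both genes at E12.5. *Tmem189* differed far less in size between genotypes, with log2 fold changes of 0.21 (SE 0.11) and 0.26 (SE 0.09). Within the set, *Frzb* (r -0.52) and *Wif1* (r -0.47) were the members with the most negative r to *Sost*.

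The neighbours of *Sost* on chromosome 11 were not called. *Dusp3*, a phosphatase gene, was higher in mutants without overlap at both stages, at 69.3 to 72.6 against 84.8 to 99.3 CPM at E11.5 and 73.5 to 78.5 against 84.9 to 99.9 at E12.5, with log2 fold changes of 0.34 (SE 0.12) and 0.28 (SE 0.08). *Meox1*, a mesoderm homeobox gene, had log2 fold changes of 0.21 (SE 0.53) and 0.07 (SE 0.14) with overlap.

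Markers of bone, where *Sost* is best known, were near 0. Of 7 bone genes listed 6 were in the table, and their summed CPM was 0.982, 1.16 and 11.4 as lowest, median and highest of the E11.5 controls and 0.486, 1.03 and 1.80 in the E11.5 mutants. At E12.5 it was 0.799, 0.989 and 1.13 in controls and 0.669, 1.23 and 3.66 in mutants. The osteocyte gene *Dmp1* had at most 1 read in a library, and *Mepe* likewise. The library with the highest bone sum, E11.5 control 1, held 4.90 CPM of *Sost*. The library with the most *Sost*, E11.5 mutant 2 at 22.2 CPM, had the lowest bone sum. E12.5 mutant 3 had the highest bone sum at E12.5, 3.66 CPM, and held 17.1 CPM of *Sost*. Most of the bone sum in E11.5 control 1 and E12.5 mutant 3 was *Runx2*, at 11.1 and 3.40 CPM. A relation between *Sost* and the bone genes was not tested. The summed levels of some other lists were apart between genotypes, as a description without a test. The 7 epicardium and mesothelium genes summed to 528 to 812 CPM in E11.5 controls and 344 to 462 in E11.5 mutants, but to 367 to 535 and 451 to 534 at E12.5. The 6 endocardium and endothelium genes summed to 786 to 947 CPM in controls and 966 to 1354 in mutants at E11.5, and to 980 to 1019 and 979 to 1182 at E12.5. The 6 cushion mesenchyme genes summed to 572 to 715 and 273 to 611 CPM at E11.5 and to 534 to 721 and 394 to 492 at E12.5. At E12.5 the 5 cartilage genes summed to 223 to 275 CPM in controls and 121 to 197 in mutants, and *Frzb* was lower in the same hearts. Most of this sum was *Col2a1*, at 175 to 222 CPM in controls and 84.3 to 142 in mutants. *Col11a2* went the other way, at 4.73 to 9.17 CPM in controls and 9.36 to 9.92 in mutants, and *Acan*, *Matn1* and *Col9a1* overlapped. The 4 smooth muscle genes summed to 1489 to 2014 and 2101 to 2488 CPM at E12.5, and 3 erythroid genes to 428 to 635 and 226 to 310. Of the 4 smooth muscle genes, *Acta2* was free of overlap at E12.5, at 1058 to 1437 CPM in controls and 1573 to 1811 in mutants. *Tagln*, *Cnn1* and *Myh11* overlapped there, and *Myh11* was low, at 0.858 to 3.57 CPM. The 4 neural crest and nerve genes in the table were low but apart at both stages, at 0.711 to 1.24 and 2.37 to 5.42 CPM at E11.5 and 0.677 to 1.12 and 4.51 to 5.90 at E12.5. Single genes made up most of some sums, namely *Postn* for cushion mesenchyme, *Acta2* for smooth muscle and, in mutants, *Prph* for nerve. Of the markers tested, 0 were called at E11.5 in edgeR, where 0.115% of all genes were. DESeq2 called 7 there, and 260 of 17464 genes in all. At E12.5 edgeR called 6 markers, where 3.03% of all genes were called. *Msln* (7 tested in its list) and *Prph* (1 tested) were higher in mutants. *Postn* (6 tested), *Col2a1* (3 tested), *Hba-a1* and *Slc4a1* (3 tested) were lower. The 6 cardiomyocyte, 6 endocardium and endothelium, 3 smooth muscle, 4 liver and 1 lung and foregut genes tested held 0 calls. The part of these shifts in the *Sost*, *Frzb* and *Wif1* values was not tested.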

How the data were processed

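Libraries from control and mutant hearts were grouped by their titles. The submitters' processing notes for these samples name Bowtie2, DESeq and mm10, and per the paper the authors aligned with Bowtie and normalised with DESeq. The paper names the NextSeq 500 and the deposited design text the GAIIx, and no counting program, annotation or strand setting is given in the sources used here. The deposited table named RPKM holds a signal: each value was a whole count multiplied by gene length and a library factor. The authors' comparison tables hold expected counts, the average raw count of each group, and also the authors' own fold changes and p-values, which were not used. Factors fitted on 11811 genes gave counts within 4.22e-10 of a whole number for the 17827 genes with reads. Another 1597 genes of the 19424 compared had none.

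Counts were tested with edgeR 4.0.16 (quasi-likelihood, TMM) in R 4.3.3 for genes with a mean of at least 0.5 RPKM, with Benjamini-Hochberg adjustment. The script was tested on simulated data. The members, the lists and the tests were chosen with earlier results of these data known. Named genes were all members, 6 fixed Wnt targets, pathway genes called in a comparison (at most the 8 largest for each), the 5 genes most like *Sost* (log2 of CPM plus 0.5), and its neighbours. Bone *Phex*, erythroid *Hbb-bs*, *Hbb-bt* and *Alas2*, and *Porcn* of the pathway list, were without a row. Embryos were called male at 100 or more Y-linked counts. Replicate numbers carry no stated pairing. Alternatives were no filter, at least 2 RPKM, median-ratio scaling, DESeq2 1.42.0, no fold threshold, all 12 libraries in 1 fit, a replicate block, a sex term, limma 3.58.1 on log2(RPKM + 0.5) and log2(RPKM + 0.1), and each library left out. Where leaving out a library left 2 in a group, the fit pooled the spread.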

Additional observations from a re-analysis of the deposited data

How the results depend on the processing

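The number of members called for genotype at E11.5 was 1 and became 0 with the sex term, and ranged from 0 to 1 over the fits that left out a library, as it did at E12.5, where the call without mutant 1 was of *Sfrp2* and not of *Sost*. For the stage change in controls the number of members called was 2. It became 1 at 2 RPKM or more, with all 12 libraries in 1 fit and with limma at either pseudocount, and 0 with the sex term, and it ranged from 0 to 2 with a library left out. Pathway genes called at E11.5 numbered 5 with DESeq2 and 3 with all 12 libraries. At E12.5 they numbered 3 without a filter and 3 without a fold threshold, 0 at 2 RPKM or more and with all 12 libraries, 4 with the replicate block, 1 with limma on log2(RPKM + 0.1), and 0 to 2 with a library left out. Between stages in controls they numbered 5 without a filter and with DESeq2, 1 at 2 RPKM or more, 6 without a fold threshold, 0 with the sex term and 0 to 5 with a library left out. In mutants DESeq2 called 1. Markers called at E11.5 numbered 2 without a filter, 7 with DESeq2, 2 with all 12 libraries, 2 with the replicate block and 1 with the sex term. At E12.5 they numbered 3 with all 12 libraries and 3 to 6 with a library left out. Over all genes, 0 to 260 were called at E11.5, 127 to 628 at E12.5, 19 to 1407 between stages in controls and 1 to 234 in mutants. Several signs changed. In controls between stages, *Sost* was at -0.035 with the replicate block and -0.027 and -0.041 with limma, *Sfrp1* at 0.0098 with the replicate block and 0.0103 and 0.0105 with limma, *Sfrp5* at 0.021 with limma on log2(RPKM + 0.1) and *Wif1* at -0.0040 with the sex term. In mutants *Frzb* was at 0.14 with the replicate block and 0.13 and 0.18 with limma, and *Nkd1* for genotype at E11.5 was at 0.19 with the sex term. With a library left out, values between stages in controls ran from -0.30 to 0.29 for *Sost*, -0.14 to 0.051 for *Dkk3*, -0.15 to 0.14 for *Sfrp1*, -0.84 to 0.72 for *Sfrp5* and -0.037 to 0.20 for *Frzb*. In mutants they ran from -0.71 to 0.40 for *Dkk2*, -0.27 to 0.067 for *Dkk3* and -0.49 to 0.51 for *Frzb*. For genotype they ran from -0.24 to 0.0047 for *Tcf7* at E12.5, and for *Nkd1* from -0.19 to 0.13 at E11.5 and -0.14 to 0.082 at E12.5. The cause of these changes was not tested. Of the members' genotype values, 14 of 265 changed sign, namely 5 for *Sfrp5*, 3 for *Sfrp1* and 1 each for *Sfrp2* and *Frzb* at E11.5, and 2 for *Dkk2* and 1 each for *Sfrp2* and *Sfrp5* at E12.5. Their ranges were -0.47 to 1.10, -0.27 to 0.17, -1.33 to 0.24 and -0.86 to 0.13 at E11.5, and -0.077 to 0.24, -0.72 to 0.013 and -0.068 to 0.20 at E12.5, in this order. Of 470 other values for single genes, 403 kept their direction and their side of the threshold. Among the counts of genes called, 137 stayed within 1.5 times and 43 did not.

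The replicate numbers share no stated origin, and libraries of the same number did not deviate together in each pair (r from -0.0275 to 0.426 at E11.5, 0.0231 to 0.0591 at E12.5, -0.121 to 0.167 in controls and -0.0317 to 0.0743 in mutants). With the replicate block, calls over all genes went from 14 to 96 at E11.5, from 371 to 445 at E12.5, from 650 to 755 in controls and from 64 to 26 in mutants. Depth limits *Sostdc1* and *Sp5* most, and E12.5 *Dkk1*, with 9 to 21 reads in a library.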
